A study of Homo sapiens with 24 samples.

Results

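LSM14A was depleted with siRNA in A2058 cells, a human melanoma cell line, and the cells were then exposed to hydroxyurea (HU). The account covers the 6 total RNA libraries of that comparison out of the 24 libraries of the series, which were chosen by their labels alone. They were 3 libraries labelled siCTRL HU, from cells given a scrambled siRNA, and 3 labelled siLSM14A HU, from cells given siRNA against LSM14A at 20 nM. Both groups received 10 mM HU for 2 h and cycloheximide shortly before collection, so neither agent differed between them. The series also holds the same 2 siRNA groups without HU, labelled NT, and a polysomal RNA library for each of these conditions, all with 3 replicates. The comparison asks which mRNAs change in amount when LSM14A is removed from cells under replication stress.

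LSM14A is an RGG-motif protein with an N-terminal LSm domain, the human counterpart of yeast Scd6. It is a core component of P-bodies, the cytoplasmic granules in which mRNAs bound by the decapping and repression machinery (DDX6, EDC4, 4E-T and the LSM1-7 ring) accumulate outside of translation. HU inhibits ribonucleotide reductase, which starves replication forks of dNTPs and activates the ATR checkpoint. Total RNA reports how much of an mRNA is present and not whether it is translated, and in bulk RNA fewer cells expressing a gene cannot be told apart from less RNA per cell.

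The 6 libraries held between 27475877 and 39414429 counts each, and mitochondrial mRNAs took between 6.82% and 8.84% of them. A count minimum left 12475 protein-coding genes to test. All 10 of the melanocyte markers checked were present at 1 CPM or more in every library, CPM being counts scaled to library size and TMM-normalised. SOX10 (623 to 745 CPM) and DCT (744.5 to 1018 CPM) stood at high levels, whereas MLANA (7.19 to 11.4 CPM) was low. Of the 10 leukocyte markers, 1 reached 1 CPM in every library and MS4A1 and NKG7 had no counts. Of the 10 keratinocyte and epithelial markers, 4 reached that level, among them KRT18 (79.9 to 87.7 CPM), KRT10 (60.6 to 70.3 CPM) and KRT8 (14.6 to 19.2 CPM). KRT5, KRT1 and KRT19 had no counts. The sum of this list ran from 159.5 to 175.0 CPM in siCTRL HU and from 167.3 to 173.0 CPM in siLSM14A HU. Of the 9 fibroblast and endothelial markers measured, 6 reached 1 CPM in every library and none was at 0 in all libraries, with LUM at 35.4 to 49.2 CPM. Their sum ran from 45.4 to 61.5 CPM in siCTRL HU and from 47.9 to 57.1 CPM in siLSM14A HU, overlapping. The summed melanocyte markers ran from 2613 to 2852 CPM in the siCTRL libraries and from 2559 to 2762 CPM in the siLSM14A libraries, so the groups overlapped.

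The targeted gene followed its labels. LSM14A (chr19:34663409-34720193, plus strand, GRCh37) stood at 90.5, 102 and 97.4 CPM in siCTRL HU replicates 1 to 3. It stood at 7.39, 8.59 and 6.88 CPM in the siLSM14A HU replicates, with no overlap. The siLSM14A mean was 7.84% of the siCTRL mean in the fit, a log2 fold change of −3.67 ± 0.09 (SE, adjusted p = 8.41e-11). Its paralog LSM14B, which shares the same domains, was measured at 51.5, 48.3 and 46.7 CPM in siCTRL HU and at 41.3, 40.4 and 42.1 CPM in siLSM14A HU. The LSM14B groups did not overlap, but its log2 difference of −0.24 ± 0.06 missed the threshold (adjusted p = 0.140) unless same-numbered replicates were paired (adjusted p = 0.00102).

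Beyond LSM14A, few mRNAs moved, and without replicate pairing most of those that did moved down. At an adjusted p under 0.05 in edgeR, 70 genes were lower and 30 were higher, which is 0.802% of all genes tested (0.561% lower and 0.24% higher). Replicate pairing and a GC correction together turned this split round, to 378 higher and 319 lower. The groups did not overlap in any of these 100 genes, whereas among all tested genes non-overlap was seen in 6.91% (lower) and 7.37% (higher). The 100 genes were called on these same values, so their separation is a description and not separate support. The median size of the 100 changes was 0.42 on the log2 scale, and 6 genes exceeded 1. Pairing the libraries by replicate number raised the count to 855 (403 higher, 452 lower, 6.85% of genes tested), including the same 100 genes. The genes called with the pairing had a median log2 size of 0.22, so the pairing mainly added small differences. Without siCTRL HU replicate 2 the count dropped to 46 genes, without siLSM14A HU replicate 2 to 55, without replicate 1 of siLSM14A HU to 59 and without its replicate 3 to 61. Across the 12475 genes, the log2 fold change had a Spearman correlation of 0.20 with the GC content of the transcript (genes are not independent replicates). A GC correction gave 60 higher and 99 lower genes.

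**Figure D1:**
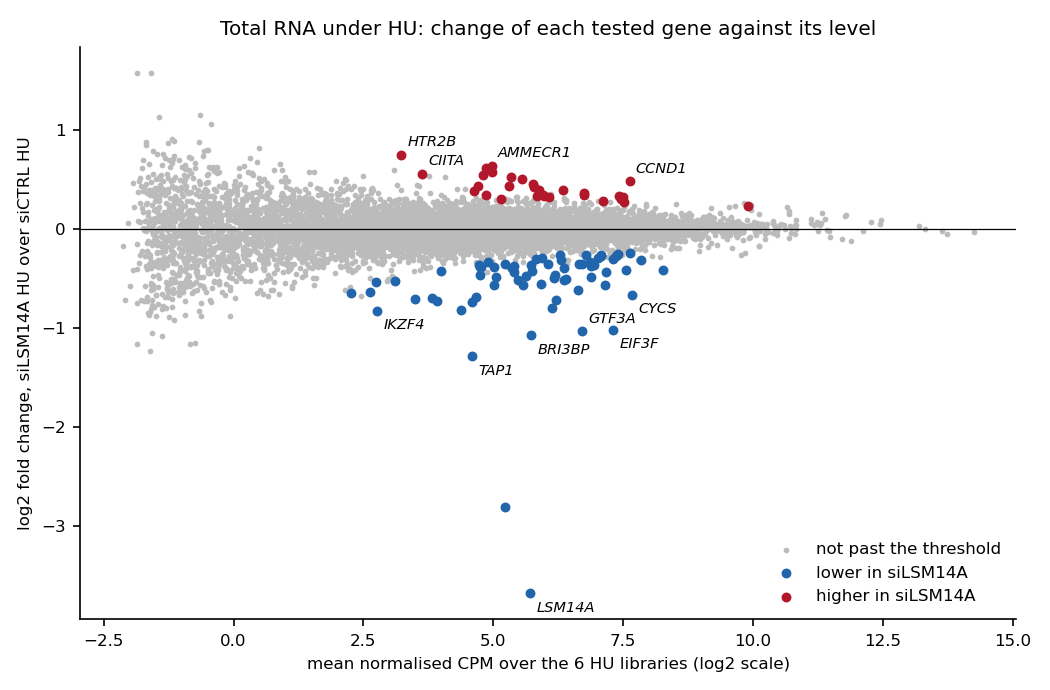
The log2 fold change of siLSM14A HU over siCTRL HU in total RNA (vertical axis) is plotted against the mean normalised CPM of the 6 libraries (horizontal axis, log2 scale), 1 point per tested gene. Blue points are the 70 lower and red points the 30 higher genes at an adjusted p under 0.05, and LSM14A lies at −3.67 while most called genes lie within 1 log2 unit of 0.

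Among the lower genes, those with the smallest p-values encode components of unrelated machineries. EIF3F, a subunit of the eIF3 translation initiation complex, stood at 212, 212 and 212 CPM in siCTRL HU and at 101, 106 and 106 CPM in siLSM14A HU. That is a log2 fold change of −1.02 ± 0.05 (adjusted p = 2.94e-07), close to a halving, with both groups tight. GTF3A, the transcription factor TFIIIA of 5S rRNA genes, was measured at 134, 145 and 142 CPM against 68.5, 66.8 and 71.1 CPM, a log2 fold change of −1.03 ± 0.06 (adjusted p = 6.04e-07). TAP1, a subunit of the transporter that loads peptides for MHC class I, fell from 36.3, 32.5 and 33.8 CPM to 13.2, 14.1 and 14.7 CPM. Its log2 fold change was −1.29 ± 0.08 (adjusted p = 1.61e-06). BRI3BP stood at 66.7, 69.6 and 78.6 CPM in siCTRL HU and at 32.7, 33.97 and 35.6 CPM in siLSM14A HU, a change of −1.07 ± 0.07 (adjusted p = 4.30e-06). In each of these genes the highest siLSM14A library lay far below the lowest siCTRL library.

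Smaller decreases followed in the RNA polymerase II subunit POLR2C, the glycosyltransferase GCNT2 and cytochrome c (CYCS). POLR2C was measured at 91.8, 93.7 and 89.1 CPM against 53.8, 57.0 and 56.0 CPM (log2 fold change −0.72 ± 0.06, adjusted p = 2.23e-05). GCNT2 gave −0.80 ± 0.07 and CYCS −0.66 ± 0.06. PACC1, a proton-activated chloride channel, fell by 0.82 on the log2 scale and CDC123, an assembly factor of eIF2, by 0.57. FAM217B gave −0.69. The kinase STK40 (−0.56), the phosphodiesterase PDE8A (−0.49) and the nuclease ISG20L2 (−0.49) came next by p-value and were added after their values were seen. All of these, from EIF3F to ISG20L2, stayed past the threshold whichever library was left out.

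The higher genes changed less. KCTD2, an adaptor of CUL3 ubiquitin ligases, led by p-value, with 40.1, 39.4 and 37.4 CPM in siCTRL HU and 57.0, 53.6 and 54.7 CPM in siLSM14A HU (log2 fold change 0.50 ± 0.06, adjusted p = 0.00126). AMMECR1 rose from 23.4, 23.8 and 26.5 CPM to 36.1, 36.2 and 42.3 CPM (0.64 ± 0.08, adjusted p = 0.00192). CCND1, which encodes the G1 cyclin D1, was measured at 159, 177 and 158 CPM and at 210, 248 and 230 CPM (0.48 ± 0.07, adjusted p = 0.00456). The groups were separate in all of them, by a narrower margin than in the leading lower genes.

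MCC (0.43), the Polycomb subunit CBX2 (0.45) and DCBLD1 (0.54) also rose and, with KCTD2, AMMECR1 and CCND1, remained called in all 6 fits that left out 1 library. The others named by p-value were the phosphatase subunit ANKRD52 (0.33), the focal adhesion protein TNS3 (0.32), the kinase HIPK3 (0.39), the PI3-kinase regulatory subunit PIK3R3 (0.61) and the serotonin receptor HTR2B (0.75). ANKRD52, HTR2B and PIK3R3 held in 5 of those 6 fits, and TNS3 and HIPK3 in 4. The neuropeptide precursor VGF (0.57) and CIITA (0.56), the master regulator of MHC class II genes, were among the higher genes by size. VGF held in 3 of the 6 fits and CIITA in 1.

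**Figure D2:**
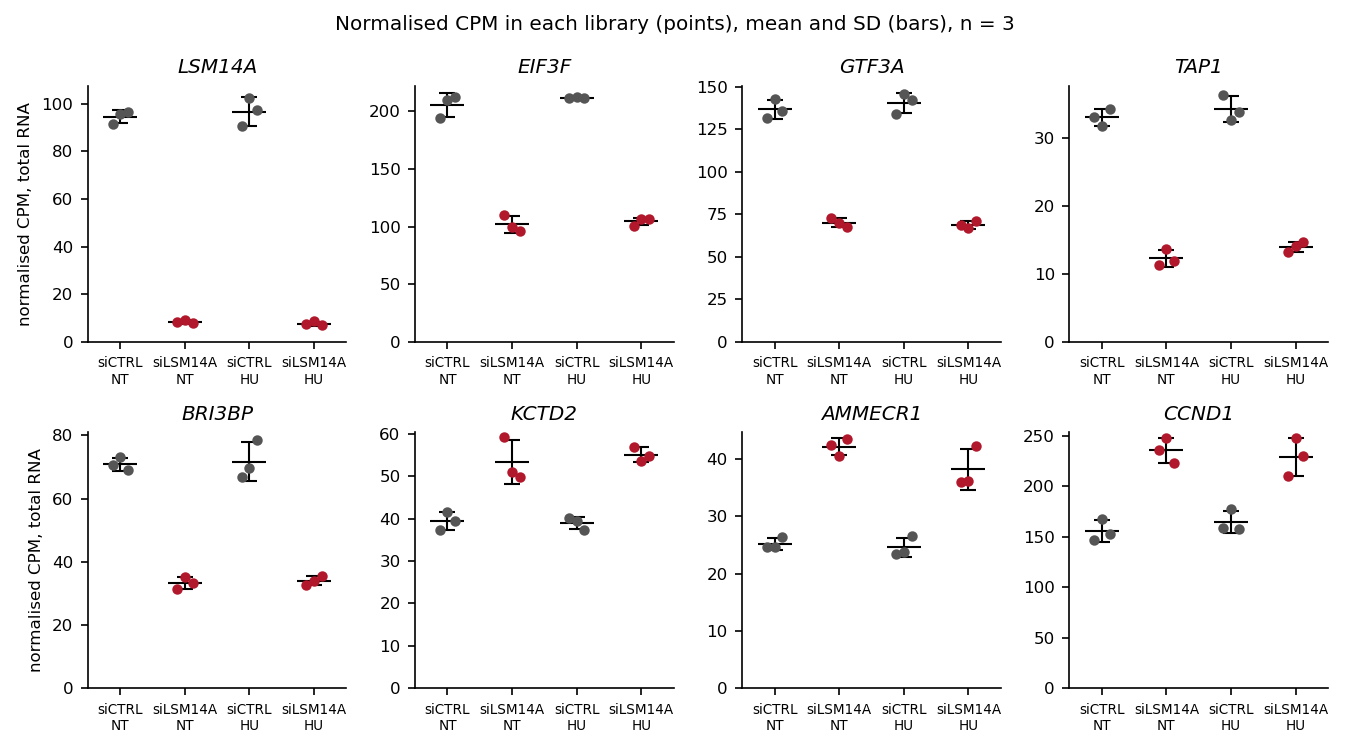
Normalised CPM in total RNA (vertical axes, from 0) of 8 genes in the siCTRL (grey) and siLSM14A (red) libraries, untreated (NT) and with HU. Each point is 1 library and bars give the mean and SD of 3. The siLSM14A points lie below all siCTRL points for LSM14A, EIF3F, GTF3A, TAP1 and BRI3BP, and above them for KCTD2, AMMECR1 and CCND1, with and without HU.

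A 7-base word recurred in the mRNAs of the lower genes, and the bases around it are shown so that the copies in the leading genes can be compared with that in LSM14A. Base pairing through a short stretch near the 5′ end of a small RNA is a known way for siRNAs and miRNAs to lower mRNAs. The sequences of the siRNAs used are not given in the sources used here, and the part of such pairing in these differences was not tested. Of 16192 words present in the 3′ UTR of at least 50 of 12267 tested genes, AACGGAG, searched on the mRNA strand, had the lowest median log2 fold change under HU. It was found with the same fold changes it describes, so its HU values are a description. The LSM14A mRNA holds 2809 of the 16192 words. The words at positions 2, 3 and 5 by HU median contain the first 6 bases of AACGGAG and are absent from the LSM14A mRNA. Their HU medians were −0.046, −0.045 and −0.04. Of their holders, 14 of 329, 9 of 161 and 16 of 409 were lower (4.3%, 5.6% and 3.9%). A further 0, 1 and 2 were higher. By NT median these words stood at positions 329, 88 and 424. How many of their holders also hold AACGGAG was not tested. AACGGAG occurs in the LSM14A mRNA once, at base 1278 of 3431, in the coding region. The 23 bases shown for it below span an exon junction. The following are 23 bases of representative GENCODE mRNAs, 5′ to 3′, with the word in capitals.
LSM14A, coding region, chr19:34710777-34712428, plus strand, with an intron inside: caatagagAACGGAGaccaacct
EIF3F, 3′ UTR, chr11:8017685-8017707, plus strand: ctctaataAACGGAGcctacctt
BRI3BP, 3′ UTR, chr12:125510024-125510046, plus strand: aaaacgaaAACGGAGgaaaaaaa
POLR2C, 3′ UTR, chr16:57505048-57505070, plus strand: tcagcaaaAACGGAGattcaggc
PACC1, 3′ UTR, chr1:212538477-212538499, minus strand: actttgtaAACGGAGctatcaac
GTF3A, coding region, chr13:28009581-28009603, plus strand: tcgtgaaaAACGGAGtttggcct
GTF3A, coding region, chr13:28009658-28009680, plus strand: tgtgtcaaAACGGAGagtcaccc
GCNT2, coding region, chr6:10626674-10626696, plus strand: tctatggaAACGGAGacttaaag
Outside the word, the flanks have little in common with the LSM14A site: the uninterrupted match containing the word was 7 bases long in EIF3F, BRI3BP and PACC1, 8 in POLR2C and 9 in GCNT2.

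The word was held by 262 of the 12474 tested genes other than LSM14A in the 3′ UTR (2.1%) and by 1074 (8.61%) anywhere in the mRNA. Of the 69 lower genes other than LSM14A, 38 (55.1%) held it, 23 of them in the 3′ UTR, 14 in the coding region and 1 in the 5′ UTR alone. Among the 30 higher genes 4 held it (13.3%). Counted from the word, 23 of the 262 genes with it in the 3′ UTR were lower (8.78%), against 0.553% of all genes other than LSM14A. Another 3 of the 262 were higher (1.145%), against 0.24% of those genes. Of the 716 with a copy in the coding region and none in the 3′ UTR, 14 were lower (1.96%) and 1 was higher (0.14%). The median log2 fold change was −0.06 with the word in the 3′ UTR, −0.03 with it in the coding region and 0.00248 without it. Most holders therefore lay close to 0, and a minority carried the large decreases.

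The ranking that gave the word used the HU libraries alone, though the word was also known from earlier results of these data. In the NT libraries, 21 of the 262 genes with the word in the 3′ UTR were lower and 0 higher (8.02% lower, against 0.387% of all genes other than LSM14A), and the median was again −0.06. By this median the word stood at position 2 of 16192. The word at position 1 in the NT libraries, CGGACCG, was held by 61 genes, none of them called under HU, where their median was 0.00896. In polysomal RNA under HU the 260 tested holders in the 3′ UTR had a median of −0.06, beside 0.0105 over all genes. Genes whose match to the LSM14A site ran to 10 or more bases were lower about as often (2 of 19) as those with 7 (12 of 137). Among 2370 mature human miRNAs listed by RefSeq, 0 carried bases 2 to 8 complementary to the word. Other bases of the miRNAs were not compared, and the part of miRNAs in these differences was not tested. Of the 25 lower genes with the smallest p other than LSM14A, 19 held AACGGAG (76.0%), beside 8.61% of all genes. In 12 of the 25 (48.0%) it lay in the 3′ UTR. Among lower genes with small p-values, and chosen after their values were seen, STK40, CUX1, IGSF8, PPARA and DDHD1 held no copy of AACGGAG. Whether these genes held the related words that contain the first bases of AACGGAG is not given here.

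**Figure D3:**
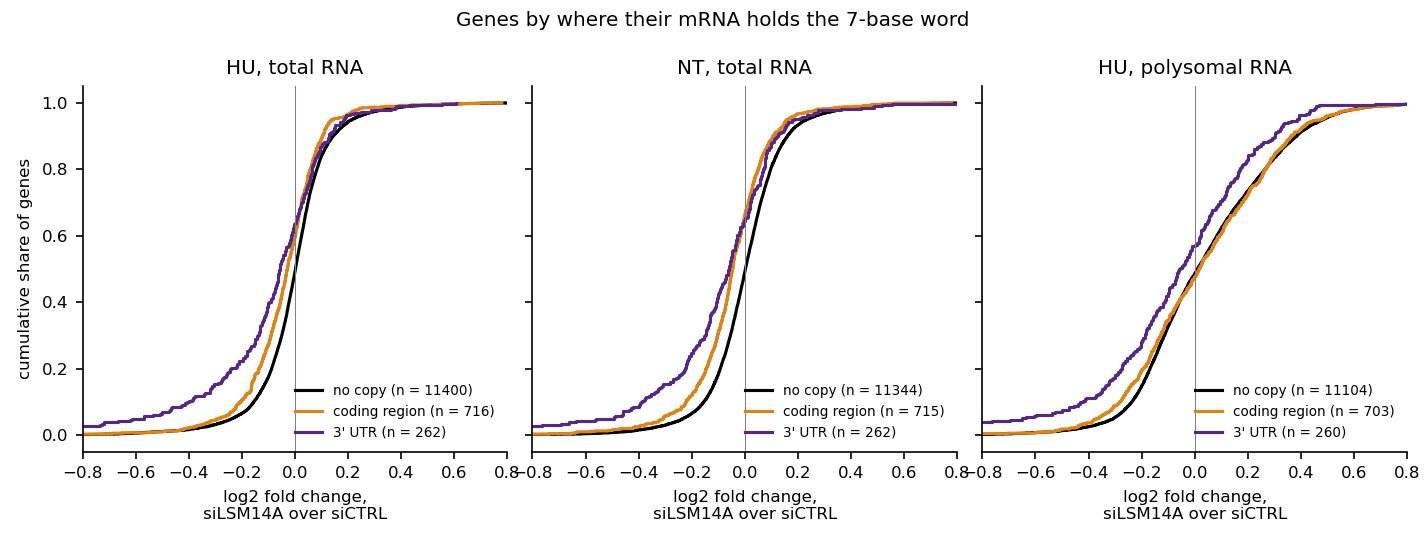
Cumulative share of genes (vertical axes) by log2 fold change of siLSM14A over siCTRL (horizontal axes, cut at 0.8 on either side), for genes with the word in the 3′ UTR (purple), in the coding region and not the 3′ UTR (orange) or nowhere (black), LSM14A left out. In both total RNA panels the purple curve departs from the black one mainly on the negative side, with the orange one between, and in polysomal RNA the orange curve lies near the black one.

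The direction of the changes was shared with the libraries without HU, and 49 of the 100 genes passed the threshold there too. The NT libraries share none with the HU libraries. All 100 genes called under HU had the same sign in NT, where 59.7% of all 12418 genes tested in both did. The median log2 fold change of the 70 lower genes was −0.44 under HU and −0.42 in NT, and that of the 30 higher genes 0.38 and 0.34. The NT comparison had 71 called genes (0.566% of those tested), of which 49 were shared: 49% of the HU calls and 69.0% of the NT calls. EIF3F gave −1.02 in both, GTF3A −1.03 and −0.97, TAP1 −1.29 and −1.43, and CCND1 0.48 and 0.59 (HU and NT).

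No gene passed the test of a difference between the effects with and without HU. By edgeR 0 of 12666 genes did, with 367 at an unadjusted p under 0.05, and by DESeq2 0, with 307. The 51 genes past the threshold under HU and not in NT are therefore not shown to respond to LSM14A loss in HU alone. Among the genes called under HU, the largest departures by unadjusted p were in DYNLT3, TNS3, HLA-B and BMI1, a Polycomb protein, of which DYNLT3 and BMI1 were singled out after their values were seen. BMI1 was measured at 6.86, 7.90 and 7.85 CPM in siCTRL HU and at 4.12, 4.88 and 5.55 CPM in siLSM14A HU. Its log2 fold change was −0.63 ± 0.13 under HU and −0.12 in NT, a difference of −0.51 ± 0.18 (unadjusted p = 0.0103, adjusted p = 1.000 in edgeR). HLA-B, an MHC class I heavy chain gene whose reads can be split among its close relatives, changed by 0.34 under HU and 0.08 in NT (difference 0.25 ± 0.08, unadjusted p = 0.00883 in edgeR).

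**Figure D4:**
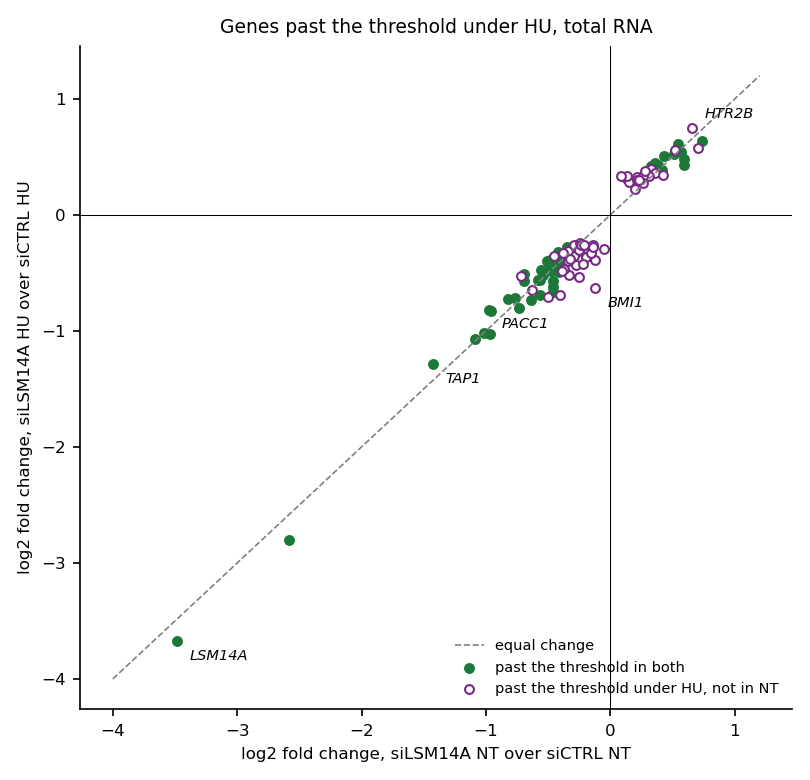
The 100 genes called under HU by their log2 fold change without HU (horizontal axis) and with HU (vertical axis). Filled green points (49) passed the threshold in both comparisons and open purple points (51) only under HU, all lie in the lower left or upper right quadrant, and the dashed line marks equal change.

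In polysomal RNA from HU-treated cells the changes were in the same direction for 95 of the 100 genes, beside 50.1% of all 12161 genes tested in both fractions. The polysomal libraries were noisier and called 8 genes, all lower (0.0653% of 12256 tested), and all 8 were among the 100. LSM14A itself stood at 29.6, 25.5 and 39.4 polysomal CPM in siCTRL HU and at 2.14, 2.07 and 1.97 in siLSM14A HU. EIF3F (−1.19), GTF3A (−1.15), TAP1 (−1.52), BRI3BP (−1.11), POLR2C (−1.002) and COQ10A (−1.16) were lower there by edgeR as well.

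Few partners of LSM14A passed the test. Of the 26 genes of the P-body repression and decapping list that were tested, LSM14A alone was called, and the list median was 0.04 beside a median over all tested genes other than LSM14A of 1.62e-05. With replicates paired, 6 were lower, LSM14A among them, and 2 higher (23.1% and 7.69%), beside 3.62% and 3.23% of all genes. LSM7, a subunit of the LSM1-7 ring that binds deadenylated mRNAs, was measured at 35.7, 35.9 and 30.02 CPM and at 27.97, 28.02 and 24.98 CPM (log2 fold change −0.33 ± 0.09, paired adjusted p = 5.41e-05). The 5′-3′ exonuclease XRN1 (−0.21), LSM3 (−0.17), LSM5 (−0.14) and LSM14B were the other lower members besides LSM14A, and CPEB4 (0.23) and TNRC6A (0.16) the higher ones. When GC was also corrected, the list had 4 lower and 3 higher. TNRC6A and TNRC6C (0.31), which bridge Argonaute to deadenylases, were the called members with pairing out of 13 small RNA pathway genes. Among 18 CCR4-NOT and PAN genes 1 (TOB1, −0.23) was called with pairing, and 0 of the 20 stress granule genes were called in either fit.

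Without pairing, 2 initiation factor genes were called. EIF3F was the only 1 of 13 eIF3 subunits called, and the list's median was −0.01. Of 27 other initiation factors EIF4E2, the cap-binding repressor 4EHP, was lower: 108, 119 and 110 CPM against 86.3, 89.8 and 87.6 CPM (−0.35 ± 0.06, adjusted p = 0.0107). Pairing added EIF4A2 (−0.23), PABPC4 (−0.23) and EIF2B1 (−0.15), so that 4 of the 27 were lower (14.8%, against 3.62% of all genes) and 0 higher. Cytosolic ribosomal protein mRNAs were flat, with 0 of 78 called, a range of log2 fold changes from −0.18 to 0.12, and RPL28 alone called with pairing. MHC class I genes went both ways: of 21 tested, TAP1 and the peptide-trimming aminopeptidase ERAP1 (−0.38 ± 0.07) were lower and HLA-B was higher, ERAP1 holding in 2 and HLA-B in 0 of the 6 fits without 1 library.

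Genes of the replication stress response changed little. None of 19 replication checkpoint genes, 19 dNTP supply genes, 28 homologous recombination and fork helicase genes or 12 non-homologous end joining genes was called. With pairing, which called 3.23% of all genes higher and 3.62% lower, CDC25A (0.15) was higher. DBF4 (−0.17), DUT (−0.17) and the helicase RECQL (−0.18) were lower, and 0 end joining genes were called. When GC was also corrected, 0 genes of the checkpoint and recombination lists were called, and 1 of dNTP supply remained. LIG4, the ligase of end joining, was measured at 22.96, 23.5 and 28.7 CPM in siCTRL HU and at 21.9, 23.8 and 25.9 CPM in siLSM14A HU, overlapping (−0.07 ± 0.10, adjusted p = 0.923). RTEL1, a helicase that dismantles D-loops, stood between 0.568 and 0.679 CPM in all 6 libraries (0.08 ± 0.27, adjusted p = 0.976). At this low level the SE was wide, so a change in RTEL1 could have been missed. It overlaps the read-through gene RTEL1-TNFRSF6B, so its count is uncertain. HPRT1, a housekeeping gene of purine salvage, gave −0.09 ± 0.07 (adjusted p = 0.777).

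Proliferation and signalling lists held few calls without pairing. CCND1 was the 1 called member of 35 G1/S and replication genes, and 0 of 30 G2/M genes and 0 of 22 p53 response genes were called. With pairing, which called 3.23% of all genes higher and 3.62% lower, the G1/S list had 3 higher and 2 lower (8.57% and 5.71%). The higher ones were CCND1, CDK6 (0.20) and CDKN1A (0.19), and the lower ones ORC6 (−0.29) and RBL1 (−0.22). The G2/M list then had 2 higher (6.67%, CDC25B at 0.16 and KIF23 at 0.14) and 0 lower. The p53 response list had 2 higher (9.09%, CDKN1A and TP53INP1 at 0.23) and 0 lower. Among 28 genes of ERK output and immediate early response, CCND1 was higher and the feedback inhibitor SPRY1 lower (39.5, 38.9 and 37.5 CPM against 25.8, 31.5 and 25.6 CPM, −0.48 ± 0.08, adjusted p = 0.0148). Pairing added EPHA2 (0.19) and FOSL1 (0.16) as higher and SPRY4 (−0.23) and FOS (−0.20) as lower, making 3 higher and 3 lower (10.7% each). Of 23 chaperone genes 1 was called, AHSA1, an activator of HSP90 (−0.42 ± 0.05, adjusted p = 0.00169), which also holds the word in its coding region. Interferon-stimulated genes had 0 calls of 27 in either fit. LSM14A was the only call among 17 nucleic acid sensing genes, a list it belongs to. Pairing added TRAF3 (−0.20) and TRIM56 (−0.18), making 3 lower (17.65%) with LSM14A counted.

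Of 15 tested markers of the dedifferentiated melanoma state, in which AXL and NGFR are high, 0 were called without pairing and 4 had a negative log2 fold change. These 4 included WNT5A at −0.58 ± 0.55, the largest difference of the list, and ZEB1 at −0.16 ± 0.13, neither of them called in either fit. With pairing 8 were higher and 0 lower (background 3.23% and 3.62%), and 7 were higher when GC was also corrected. AXL, a receptor tyrosine kinase, stood at 184, 191 and 197 CPM and at 207, 233 and 215 CPM (0.20 ± 0.06, adjusted p = 0.230, paired 0.00125). NGFR, the neural crest nerve growth factor receptor, stood at 48.1, 48.1 and 50.4 CPM and at 53.3, 63.5 and 61.3 CPM (0.28 ± 0.07, adjusted p = 0.119, paired 5.50e-05). These groups did not overlap. The YAP targets CCN1 and CCN2 varied more between replicates: CCN2 was at 73.9, 45.7 and 62.6 CPM and at 90.0, 70.1 and 72.1 CPM, overlapping, but higher in siLSM14A within each replicate number (0.35 ± 0.14, paired adjusted p = 6.14e-07). FOSL1 (0.16), NT5E (0.14), LOXL2 (0.18) and SMAD3 (0.18) made up the rest of the paired calls. The list's median was 0.18 under HU, 0.15 in NT and 0.08 in polysomal RNA.

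Of the 22 melanocyte lineage genes 0 were called. Pairing called the pigment enzyme DCT lower (1018, 901 and 921 CPM against 837, 780 and 744.5 CPM, −0.26 ± 0.06, paired adjusted p = 2.16e-05) and the lineage factor PAX3 higher (0.20). Over all genes, pairing called 3.23% higher and 3.62% lower. Matrix and integrin genes had 4 higher (14.8%) and 0 lower of 27 with pairing, namely FN1 (0.24), THBS1 (0.18), ITGB3 (0.28) and ITGB8 (0.20), and none without. HMOX1, which degrades heme, was measured at 18.7, 21.3 and 16.8 CPM and at 26.4, 25.6 and 23.1 CPM (0.40 ± 0.10, adjusted p = 0.0949, paired 9.16e-06). It stands in both the iron list (3 of 11 higher with pairing, 27.3%, with FTL and SLC11A2) and the NRF2 list (3 higher, 16.7%, and 1 lower, 5.56%, of 18).

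In the remaining lists the paired calls went both ways or were single. Integrated stress and unfolded protein genes had 5 higher (17.9%) and 2 lower (7.14%) of 28, against 3.23% and 3.62% of all genes. With a GC correction as well they had 3 higher and 2 lower. Cholesterol synthesis genes had 2 higher (8.33%) and 3 lower (12.5%) of 24, with FDPS at −0.21 and INSIG1 at 0.16. Among 13 mitochondrially encoded mRNAs 1 was called with pairing, MT-ND3 (−0.25 in the paired fit, paired adjusted p = 0.0130). Without pairing MT-ND3 gave −0.20 ± 0.27 (adjusted p = 0.923), and with pairing and a GC correction 0 of these mRNAs were called. Among 13 SR splicing factors 0 were called. None of the tested keratinocyte and epithelial (4), leukocyte (2) or fibroblast and endothelial (7) markers was called in either fit.

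**Figure D5:**
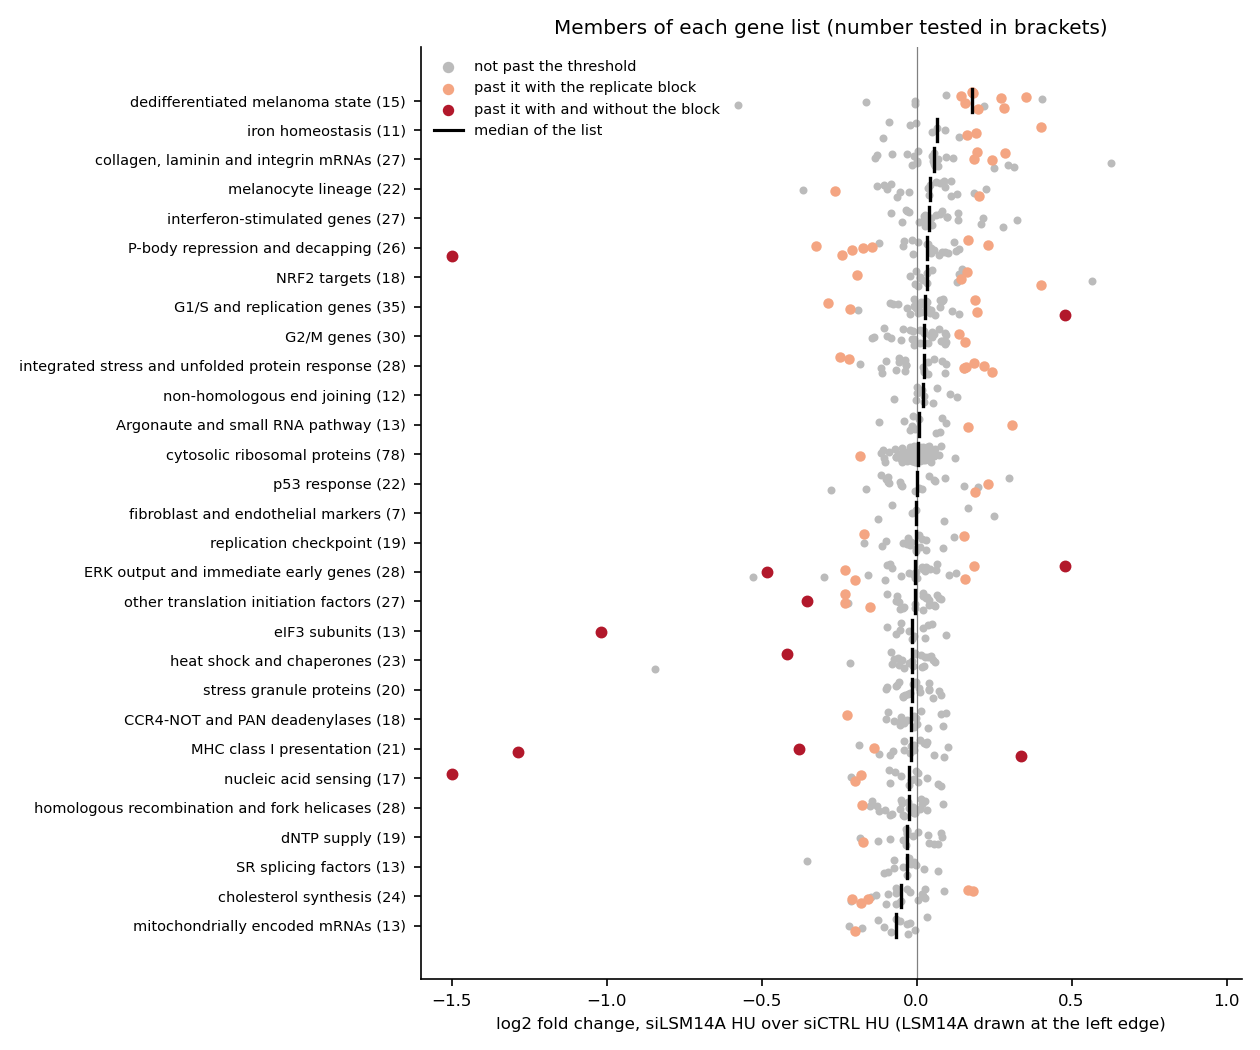
Log2 fold change of siLSM14A HU over siCTRL HU (horizontal axis) for the tested members of each gene list with at least 7 tested members (rows, number tested in brackets), 1 point per gene, with LSM14A drawn at the left edge. Dark red points passed the threshold with and without replicate pairing, orange points with pairing, and black bars are list medians, which run from −0.06 to 0.07 except that of the dedifferentiated melanoma state at 0.18 (MHC class II genes, put together after their values were seen, are not drawn).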

How the data were processed

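A2058 total RNA and polysomal RNA were sequenced as stranded polyA libraries (paired reads of 100 bases). The authors mapped reads to hg19 with STAR 2.6.1a and deposited raw counts per gene for 20345 Ensembl IDs in 24 libraries. Of these, 19637 were found in GENCODE v44 lifted to GRCh37, 19086 as protein-coding. Total RNA counts of siLSM14A HU and siCTRL HU (3 libraries each) were compared with edgeR 4.0.16 (R 4.3.3): protein-coding genes, filterByExpr with a minimum of 10 counts, TMM factors, quasi-likelihood F test, Benjamini-Hochberg adjusted p under 0.05. CPM values are TMM-normalised over the total RNA libraries. NT, polysomal HU and the interaction were tested alike. Log2 fold changes carry their SE. The labels number the replicates 1 to 3 without saying whether they were separate cultures, so p-values measure the spread between libraries, which may be technical. Same-numbered siCTRL HU and siLSM14A HU libraries deviated together (correlations 0.349, 0.199 and 0.285 of deviations from the group means), which is how the pairing was inferred, and the replicate block is given where it changes a call. Differently numbered libraries of these 2 groups ran from −0.255 to 0.00304. In NT, however, siCTRL replicate 1 and siLSM14A replicate 3 gave 0.477, so correlations of this size also arose between different numbers. The pairing is thus an inference from the same libraries. In simulated counts for the HU comparison (12474 genes) 78.8% of 198 genes changed by 0.5 log2 were called, and 92.9% of 197 changed by 1 (12475 genes). These counts were drawn without replicate pairing or a GC trend, so the shares describe that setting and may not hold for the real libraries. False calls in them are not given here. Named genes were the 12 with the smallest p and the 5 with the largest change in each direction, list members past the threshold with or without the block, and LSM14A, LSM14B, LIG4, RTEL1 and HPRT1. The rule also asked for the word with the lowest NT median, and the word with the lowest HU median was added after its values were seen. Members and lists were chosen with earlier results of these data known. Results for some genes and a site that the rules name are not reported here. Alternatives tried were DESeq2 1.42.0, RLE factors, other filters, all genes, a loess GC correction (span 0.3), all 12 libraries of the fraction, the replicate block and leaving out each library.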

Additional observations from a re-analysis of the deposited data

How the results depend on the processing

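The 100 genes called under HU became 189 with DESeq2, 855 with the replicate block, 159 with a GC correction and 697 with both block and GC correction (378 higher, 319 lower). Leaving out each library in turn gave 46 to 101. The share of higher genes was 30% in the reported fit, 40.2% with DESeq2, 47.1% with the block, 37.7% with the GC correction and 54.2% with block and GC correction. The 71 NT calls became 200 with DESeq2, 45 with the replicate block, 121 with a GC correction and 131 with all 12 libraries, and 28 to 80 with 1 library left out. The 8 polysomal calls became 22 with DESeq2, 40 with the block and 22 with block and GC correction, and 2 to 8 with 1 library left out. Same-numbered NT and polysomal libraries did not all deviate together, so for these the block has no such basis. The interaction stayed at 0 calls in every alternative run, the block included. Of 99 genes called under HU and followed individually, none changed sign in any alternative, and 40 of the 100 held in each of the 6 leave-one-out fits. Among other named genes, LIG4 turned to 0.0068 with the GC correction and 0.0074 with block and GC correction. With 1 library left out LIG4 ran from −0.14 to 0.039, FOS from −0.38 to 0.046, MT-ND3 from −0.66 to 0.024 and HLA-DRB5 from −0.036 to 0.66, none of them called in these leave-one-out fits. The genes with the word in the 3′ UTR called lower (23) numbered 15 to 23 with 1 library left out, 60 with the block and 55 with block and GC correction (alternatives chosen after seeing the data). The cause of these differences was not tested.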

Other observations

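MHC class II genes, a list put together after their values were seen, had positive log2 fold changes in siLSM14A HU, most of which did not pass the test without pairing. The list had 10 tested members out of 13, with a median of 0.32 under HU, 0.17 in NT and 0.15 in polysomal RNA. CIITA, the transactivator of these genes, was the 1 called without pairing (11.7, 9.24 and 9.04 CPM against 14.8, 15.8 and 13.3 CPM, 0.56 ± 0.12, edgeR adjusted p = 0.0474). With replicates paired 7 were called, all higher (70.0%, beside 3.23% of all genes higher with pairing), a description only, since the list was chosen on these values. HLA-DRA, the alpha chain of HLA-DR, stood at 5.84, 7.36 and 9.12 CPM in siCTRL HU and at 8.94, 10.8 and 10.9 CPM in siLSM14A HU, so the groups overlapped, while each siLSM14A library exceeded the siCTRL library of its number (0.45 ± 0.15, paired adjusted p = 0.000668). CD74, the invariant chain, gave 0.29 ± 0.08 and HLA-DMB 0.48 ± 0.16. HLA-DRB1 (0.30) and HLA-DRB5 can share reads and are uncertain. HLA-DPB1 (0.08), HLA-DQB1 and HLA-DRB5 were not called in either fit.

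Of 266 tested IDs outside the protein-coding annotation, 3 were called, all lower, whereas 0.802% of protein-coding genes were called in either direction. One is the lncRNA AGAP2-AS1, with a log2 fold change of −0.49 ± 0.09 (edgeR adjusted p = 0.0235), and the other 2 IDs, ENSG00000174374 (−0.48) and ENSG00000108292 (−0.33), have no name in the tables used here.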
